A study of Mus musculus with 8 samples.

Results

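Genes of the cell division cycle were followed in epididymal white fat, the visceral fat pad along the epididymis of male mice. They were taken by gene name from the deposited table, and 35 of 35 listed names were found among its 37417 genes, 14 that act in DNA synthesis (S phase) and 21 that act mainly in mitosis. All 35 passed the filter on low counts that left 14800 genes for testing. The study compared 4 wild-type (WT) mice with 4 mice of the genotype Adiponectin-Cre ERT2-Atg3 flox/flox, here called knockout. All were males of the C57Bl/6 strain on chow, and both genotypes received tamoxifen, the drug that activates the Cre ERT2 recombinase. The adiponectin promoter is active in adipocytes, so cells of other types in the fat pad keep the gene. The sources used here give neither the age of the mice nor the time since tamoxifen.

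Dividing cells pass through a fixed order of phases. In G1 the transcription factor E2F1 and its relatives are held in check by the retinoblastoma family, and once released they switch on the genes that license and copy DNA. Later, cyclin-dependent kinase 1 with cyclins A and B, together with FOXM1 and the DREAM and MuvB complexes, governs the genes that condense and separate chromosomes. Mature adipocytes do not divide as a rule, and the dividing cells of fat are mostly macrophages, endothelial cells and adipocyte precursors, so that these transcripts are usually scarce in the whole tissue.

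Total counts ran from 10986375 to 21688464 per library, with knockout library 4 the deepest. Levels are in CPM, a gene's count relative to the library's total, scaled by TMM to adjust for library composition. The log2 fold change (log2FC) sets knockout over wild-type and comes from edgeR's quasi-likelihood test with p-values adjusted over all 14800 genes by the Benjamini-Hochberg method. The transcript of the deleted gene, Atg3, averaged 50.1 ± 4.33 CPM in wild-type fat against 30.2 ± 1.83 CPM in the knockout (SD, n = 4; log2FC -0.73, edgeR adjusted p = 0.0168), with no overlap. Markers of adipocytes (6 genes, Adipoq and Fabp4 among them) summed to between 19470 and 28762 CPM in each library. Of the 6, 0 were called and 1, Adipoq, was lower in the knockout without overlap, as were 4.54% of all tested genes. Adipoq held 2447 to 3986 CPM in wild-type and 2150 to 2367 CPM in knockout libraries (log2FC -0.45, edgeR adjusted p = 0.218). Plin1, Lep, Fabp4 and Pnpla2 had log2FC from -0.31 to -0.15, and Cidec 0.47. Knockout libraries 2 and 3 stood apart: 10 markers of duct epithelium, such as Epcam and Foxj1, summed to 460.3 and 466 CPM there, 30.1 and 40.6 CPM in knockout libraries 1 and 4, and 8.35 to 18.9 CPM in wild-type libraries. In whole tissue, fewer cells of a type and less RNA per cell cannot be told apart.

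None of the 35 genes passed an adjusted p of 0.05 (0 higher, 0 lower), where 0.405% of all tested genes did, 0.277% higher and 0.128% lower. The lowest adjusted p was 0.156, for E2f1. At an unadjusted p under 0.05, 3 members were higher in the knockout (E2f1, Mcm6 and Cdk1) and 0 lower. That is 8.57% of the members, against 8.52% of all tested genes higher and 7.66% lower at the same threshold, so their number was at the background. DESeq2 called 1 member, E2f1 (adjusted p = 0.0402), while it called 5.47% of all tested genes (3.51% higher, 1.96% lower), and limma-voom called 0 (0.304% of all tested genes). Positive log2FC were more common among the members than among all genes. They were found for 30 of 35 members (85.7%), against 47.6% of all tested genes (52.4% were below 0), and the median was 0.20 for the members and -0.01 for all tested genes. Genes of one process are not independent of each other, and no test was made of this share. The share of counts from mitochondrial genes also differed without overlap, at 3.05% to 4.93% in wild-type and 5.03% to 6.08% in knockout libraries, and its part in the member levels was not tested.

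The S phase genes were the more abundant class. Per kilobase of exon, the median wild-type level was 4.04 CPM per kb over the 14 S phase genes, 1.07 over the 21 mitotic genes and 6.68 over all tested genes. Pcna, the sliding clamp of DNA polymerase, led at 10.6 CPM per kb, followed by Rrm1, the large subunit of ribonucleotide reductase, at 6.77, Mcm4 at 6.31 and Mcm3 at 6.29. The lowest S phase level was that of Cdc6, which loads the MCM helicase onto origins, at 0.673 CPM per kb. Among mitotic genes the order ran from Bub1b, a spindle checkpoint kinase, at 1.86 CPM per kb, to Cenpf, a kinetochore protein, at 0.166. Each of the 14 S phase genes held 37 to 594 reads per library, and the mitotic genes 8 to 438.

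**Figure D1:**
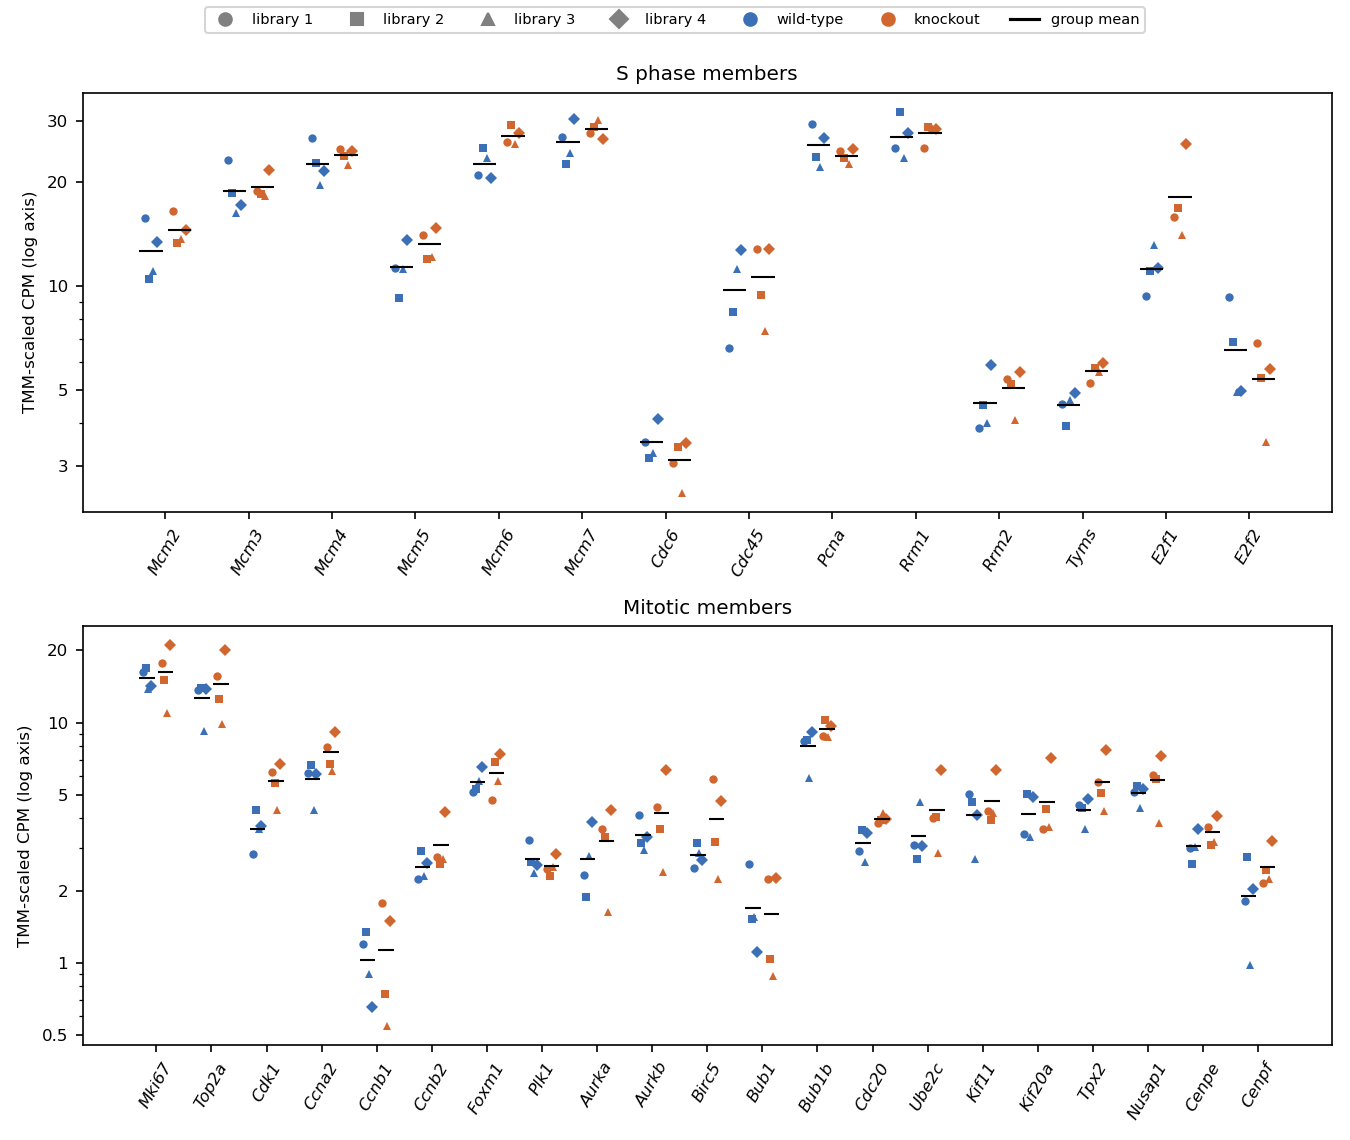
TMM-scaled CPM (log axis) of each S phase gene (upper panel) and mitotic gene (lower panel) in the 4 wild-type (blue) and 4 knockout (orange) libraries. Symbols mark library numbers and black lines group means. The genotypes overlap for 30 of the 35 genes, and knockout library 4 (diamonds) lies at the top of the knockout group for 17 of the 21 mitotic genes.

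Among the S phase genes, E2f1, Mcm6 and Tyms were higher in each knockout library than in any wild-type library. E2f1 encodes the activator of the S phase programme, and its gene lies on chromosome 2 (154559407 to 154569892, minus strand, build mm10). It held 9.35, 11.02, 13.2 and 11.3 CPM in wild-type libraries 1 to 4 and 15.8, 16.9, 14.1 and 25.8 CPM in knockout libraries 1 to 4. The groups did not overlap, though knockout library 3 lay close to wild-type library 3, and knockout library 4 stood well above the other 7. The means were 11.2 ± 1.57 and 18.1 ± 5.26 CPM (SD, n = 4; log2FC 0.70, SE 0.20, edgeR adjusted p = 0.156). Without knockout library 4 the log2FC was 0.47 (edgeR adjusted p = 0.165), and without knockout libraries 2 and 3, a choice made after the data were seen, it was 0.91 (adjusted p = 0.259).

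Mcm6 is 1 of the 6 subunits of the MCM2-7 ring, the helicase that unwinds DNA at replication forks. It held 20.9, 25.2, 23.5 and 20.5 CPM in wild-type libraries and 26.1, 29.4, 25.8 and 27.8 CPM in knockout libraries (log2FC 0.27, SE 0.095, edgeR adjusted p = 0.205). The highest wild-type and lowest knockout libraries were less than 1 CPM apart. Tyms makes thymidylate, a DNA building block. Its levels were 4.55, 3.93, 4.66 and 4.90 CPM in wild-type libraries against 5.22, 5.77, 5.64 and 5.99 CPM in knockout libraries (log2FC 0.33, SE 0.15, edgeR adjusted p = 0.337). Its variance in each genotype was below that of counting alone (0.620 and 0.287 times the counting variance), the lowest such ratios among the S phase genes. These 3 are 21.4% of the S phase genes; among all tested genes 4.32% were higher without overlap and 4.54% lower.

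The other 11 S phase genes overlapped between genotypes. The remaining helicase subunits had log2FC of 0.20 (Mcm2), 0.04 (Mcm3), 0.08 (Mcm4), 0.23 (Mcm5) and 0.13 (Mcm7), with edgeR adjusted p from 0.492 to 0.912. Pcna held 29.5, 23.7, 22.2 and 26.8 CPM in wild-type libraries against 24.6, 23.5, 22.6 and 24.9 CPM in knockout libraries (log2FC -0.10, SE 0.10, edgeR adjusted p = 0.696), with the knockout values inside the wild-type range. The subunits of ribonucleotide reductase, Rrm1 and Rrm2, had log2FC of 0.04 and 0.15, and Cdc45, a partner of the helicase, 0.12. Cdc6 and E2f2, a second activating E2F, had log2FC of -0.17 and -0.27, the latter spread from 3.53 to 9.27 CPM over the 8 libraries. For 13 of the 14 genes the 95% interval of the log2FC left out a 2-fold rise, the exception being E2f1 (0.24 to 1.15), and for 14 of 14 it left out a 2-fold fall. The median log2FC was 0.12, and 0.08 without knockout library 4 and 0.22 without wild-type library 4.

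The bases around a gene's start carry the motifs through which E2F factors and the DREAM and MuvB complexes are known to act, and they are printed for the genes whose genotypes did not overlap. The sequences, 250 bases before to 30 after the start, are RefSeq's for GRCm38.p6, written 5′ to 3′ on the gene's own strand. Capitals mark the motifs searched on both strands: the CHR element TTTGAA, the CCAAT box CCAAT and the E2F site TTTCCCGC, TTTCGCGC, TTTGCCGC or TTTGGCGC. A match is a match of letters, not a site shown to be bound. The RefSeq start of E2f1 lies 466 bases from the 5′ end of the gene model of the deposited table, so its window is not shown. That window held 0 matches to the motifs. For S phase the windows shown are chr1:128359676-128359955 (Mcm6, minus strand) and chr5:30073596-30073875 (Tyms, minus strand).
Mcm6: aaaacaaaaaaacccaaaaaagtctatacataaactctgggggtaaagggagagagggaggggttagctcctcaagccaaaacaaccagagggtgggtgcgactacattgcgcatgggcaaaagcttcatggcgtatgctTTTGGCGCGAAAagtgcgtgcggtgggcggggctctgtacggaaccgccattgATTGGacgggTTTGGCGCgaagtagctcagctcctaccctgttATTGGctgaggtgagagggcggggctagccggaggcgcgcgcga
Tyms: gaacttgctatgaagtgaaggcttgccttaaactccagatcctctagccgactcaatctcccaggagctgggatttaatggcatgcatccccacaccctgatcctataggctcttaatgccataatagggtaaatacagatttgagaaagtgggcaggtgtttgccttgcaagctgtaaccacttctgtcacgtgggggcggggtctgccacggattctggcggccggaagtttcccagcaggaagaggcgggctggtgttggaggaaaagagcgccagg

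Mcm6 showed 3 E2F matches, 110, 106 and 47 bases before the start, of which the first pair overlap each other on opposite strands, and 2 CCAAT boxes in reverse orientation (ATTGG) 57 and 14 bases before it. Tyms showed no match to any of the motifs in this window. Over the 15 windows of the 13 S phase genes found in the RefSeq table, 5 held an E2F site (33.3%, against 2.12% of 32851 promoters), 12 a CCAAT box (80%, against 36.1%) and 3 a CHR element (20%, against 17.2%). These shares keep windows that start over 200 bases from the gene model's 5′ end, all of them S phase ones. They are those of E2f1 (466 bases), Cdc6 (350), Mcm7 (539 and 1156) and E2f2 (8388, its other window 120). Among the windows with an E2F site, those of Mcm7 and Cdc6 are such distant ones.

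Of the 21 mitotic genes 19 lay above 0 (90.5%), and their median log2FC was 0.23. Cdk1, the kinase that drives entry into mitosis, lies on chromosome 10 (69336635 to 69352938, minus strand) and came nearest to the threshold. It held 2.83, 4.34, 3.60 and 3.72 CPM in wild-type libraries against 6.22, 5.62, 4.35 and 6.76 CPM in knockout libraries, from 33 to 141 reads. The groups did not overlap, but wild-type library 2 and knockout library 3 were almost level, at 4.34 and 4.35 CPM. The means were 3.62 ± 0.619 and 5.74 ± 1.04 CPM (SD, n = 4; log2FC 0.66, SE 0.21, edgeR adjusted p = 0.177).

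Cdc20, which activates the ubiquitin ligase that starts anaphase, was the other mitotic gene without overlap. Its levels were 2.92, 3.58, 2.62 and 3.46 CPM in wild-type libraries against 3.84, 3.92, 4.21 and 3.98 CPM in knockout libraries (log2FC 0.34, SE 0.18, edgeR adjusted p = 0.388). Here knockout library 3 was the highest and library 1 the lowest of the knockout group, an order unlike that of most mitotic genes. With Cdk1 it makes 9.52% of the mitotic genes, beside 4.32% of all tested genes that were higher without overlap. Their start regions, from the same source, are chr10:69352883-69353162 (Cdk1, minus strand) and chr4:118437314-118437593 (Cdc20, minus strand).
Cdk1: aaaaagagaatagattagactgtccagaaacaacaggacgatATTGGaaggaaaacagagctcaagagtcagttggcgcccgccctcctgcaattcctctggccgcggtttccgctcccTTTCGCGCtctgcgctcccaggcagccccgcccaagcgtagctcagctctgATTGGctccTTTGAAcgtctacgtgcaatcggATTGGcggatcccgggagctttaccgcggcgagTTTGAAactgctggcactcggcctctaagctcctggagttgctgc
Cdc20: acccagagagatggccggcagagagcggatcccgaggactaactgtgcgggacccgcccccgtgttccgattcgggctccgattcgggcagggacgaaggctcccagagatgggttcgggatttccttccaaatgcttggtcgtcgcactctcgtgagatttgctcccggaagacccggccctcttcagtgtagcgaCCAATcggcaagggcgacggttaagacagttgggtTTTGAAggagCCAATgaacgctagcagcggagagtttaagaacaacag

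Both hold the paired arrangement of CCAAT boxes and CHR elements that is textbook knowledge for mitotic genes. In Cdk1 CHR elements stood 71 and 15 bases before the start, reverse CCAAT boxes 208, 80 and 48 bases before it and an E2F site 131 bases before it. In Cdc20 a CHR element stood 18 bases before the start and CCAAT boxes 53 and 8 bases before it. Of the 16 mitotic genes with a RefSeq window, 8 held both a CHR element and a CCAAT box (50%, against 6.40% of all promoters and 20% of the S phase windows), 14 a CCAAT box (87.5%) and 1 an E2F site (6.25%).

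The kinases and cyclins that act with CDK1 had smaller differences. Ccna2, cyclin A2, held 6.18, 6.69, 4.34 and 6.14 CPM in wild-type libraries against 7.91, 6.73, 6.32 and 9.16 CPM in knockout libraries (log2FC 0.37, SE 0.19, edgeR adjusted p = 0.392). Knockout library 3 fell within the wild-type range, and the other 3 lay above it, library 2 by a small margin. Of the B cyclins, Ccnb2 had a log2FC of 0.29, with knockout library 4 alone above the wild-type range (0.09 without it), and Ccnb1 one of 0.15 (SE 0.42) from only 8 to 31 reads per library. Foxm1, the transcription factor of the mitotic programme, had a log2FC of 0.13 and the polo-like kinase Plk1 one of -0.10. The Aurora kinases had log2FC of 0.25 (Aurka, spindle poles) and 0.31 (Aurkb, chromosomal passenger complex). Both rested on knockout library 4, without which they were 0.07 and 0.04; without knockout library 3 they were 0.48 and 0.51.

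Birc5 (survivin), the partner of Aurkb in that complex, had the second largest mitotic log2FC, 0.51 (SE 0.30, edgeR adjusted p = 0.441). It held 2.49, 3.17, 2.86 and 2.68 CPM in wild-type libraries against 5.84, 3.18, 2.24 and 4.70 CPM in knockout libraries. Only knockout libraries 1 and 4 stood clear of the wild-type range; library 2 was level with its top and library 3 lay below it. The log2FC of Birc5 was 0.27 without knockout library 1. It was 0.92 without knockout libraries 2 and 3, its lowest knockout values, left out after the data were seen.

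The most used proliferation markers differed little between the genotypes. Mki67, whose protein coats mitotic chromosomes and marks cycling cells, held 16.3, 16.8, 13.8 and 14.2 CPM in wild-type libraries against 17.8, 15.01, 11.01 and 21.0 CPM in knockout libraries (log2FC 0.08, SE 0.19, edgeR adjusted p = 0.864). Both the highest and the lowest of the 8 values came from knockout mice. Top2a, the topoisomerase that untangles sister chromatids, held 13.7, 14.02, 9.25 and 13.8 CPM in wild-type libraries against 15.6, 12.6, 9.92 and 20.1 CPM in knockout libraries (log2FC 0.20, SE 0.23, edgeR adjusted p = 0.723). The 95% interval for Mki67 ran from -0.34 to 0.51 on the log2 scale, and that for Top2a from -0.32 to 0.71. Without knockout library 4 the log2FC of Mki67 was -0.07 and that of Top2a -0.0025, and without knockout library 3 they were 0.24 and 0.35.

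Genes of the spindle, the kinetochore and its checkpoint, and of anaphase likewise did not pass. The microtubule motors Kif11 and Kif20a had log2FC of 0.19 and 0.16, the spindle assembly factors Tpx2 and Nusap1 0.39 and 0.18, and the kinetochore proteins Cenpe and Cenpf 0.21 and 0.40. The checkpoint kinases Bub1 and Bub1b had -0.06 and 0.23, and Ube2c, the ubiquitin-conjugating enzyme of anaphase, 0.36. Without knockout library 4 the log2FC was 0.11 for Ube2c, 0.21 for Tpx2 and 0.0004 for Kif11. With all 8 libraries the edgeR adjusted p of these genes ran from 0.416 (Tpx2) to 0.957 (Bub1). Over the 21 mitotic genes the 95% interval left out a 2-fold rise for 15 and a 2-fold fall for 21.

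**Figure D2:**
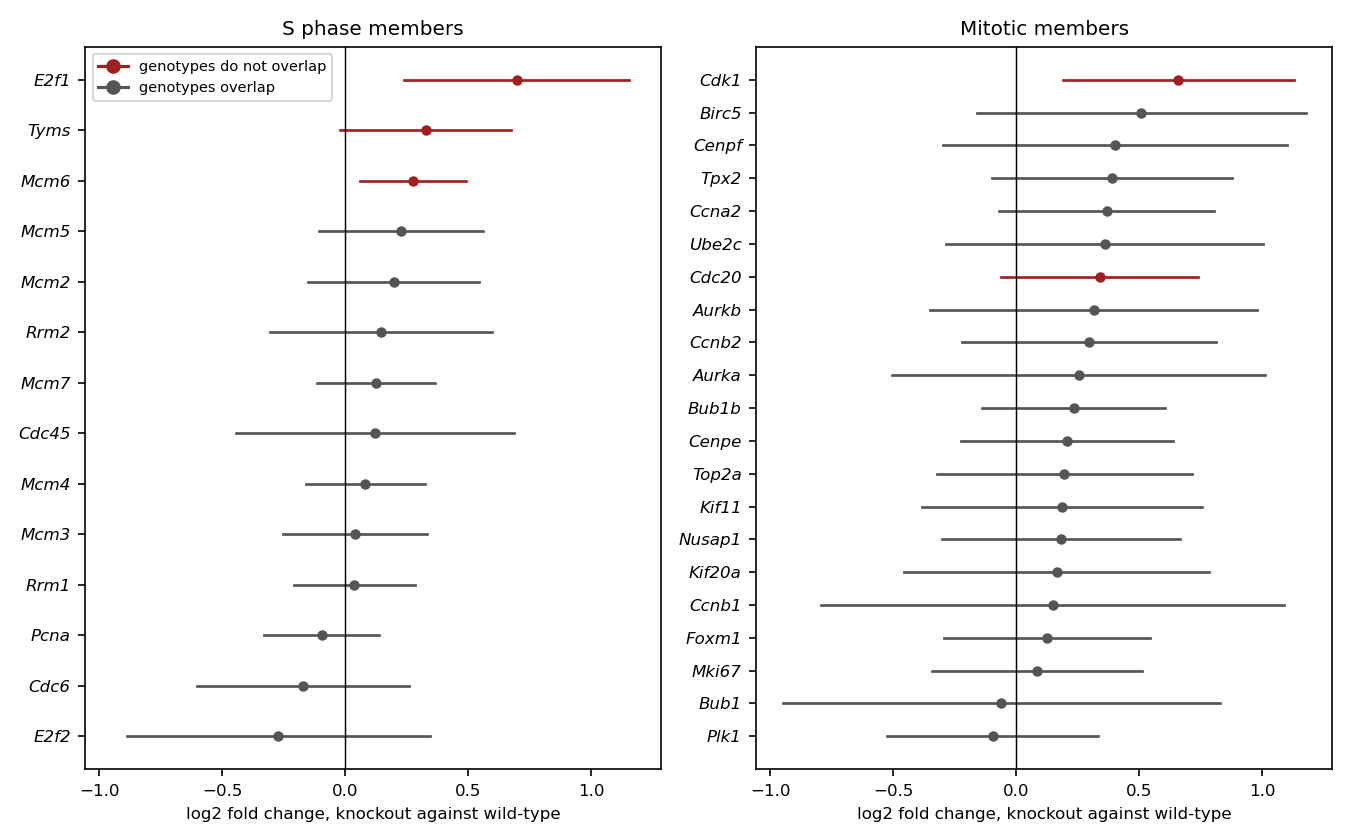
Log2 fold change, knockout against wild-type, of each S phase gene (left) and mitotic gene (right), with the 95% interval from edgeR's fit as a bar. Genes whose genotypes do not overlap are red (E2f1, Tyms, Mcm6, Cdk1, Cdc20). No gene passed an adjusted p of 0.05; 11 of 14 and 19 of 21 points lie right of 0.

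The mitotic genes varied together from mouse to mouse among the knockouts. Summed over the 21 genes, wild-type libraries 1 to 4 held 99.8, 103, 83.7 and 102 CPM and knockout libraries 1 to 4 held 118, 107, 87.4 and 146 CPM. Knockout library 4 was the highest of all 8 and knockout library 3 was below 3 of the 4 wild-type libraries. Knockout library 4 was the highest of its genotype for 17 of the 21 genes and library 3 the lowest for 13; among all tested genes library 4 was the highest for 28.4%. The median deviation of the mitotic genes from their knockout mean was 0.41 in library 4 and -0.37 in library 3 (log2 CPM), against 0.00 and 0.01 over all tested genes. The S phase genes had the same order with smaller deviations. Library 4 was above the knockout mean for 13 of 14 (median 0.11) and library 3 for 2 of 14 (median -0.09). Over all tested genes 49.0% lay above that mean in library 4 and 52.1% in library 3. Library 3 was the lowest for 9 of 14 S phase genes. The share of all tested genes that were lowest in a given library was not computed. Aurkb ranged from 2.38 CPM in library 3 to 6.33 in library 4, and Kif20a, a motor of cytokinesis, from 3.61 CPM in library 1 to 7.10 in library 4.

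In wild-type mice library 3 was the low one, the lowest for 12 of 21 mitotic genes, with a median deviation of -0.17. The spread was compared with counting error by an index, the variance over the libraries divided by that of counting alone, which is 1 where reads vary by counting only. For the mitotic genes its median was 1.44 in wild-type and 4.78 in knockout mice, and it was larger in the knockout for 17 of 21 genes. Over all tested genes the medians were 5.13 and 5.002, and the mitotic median was below that in wild-type mice and near it in the knockout. For the same relative spread between mice the index rises with read number. The mitotic genes held 8 to 438 reads per library and the S phase genes 37 to 594, so the index cannot rank the variability of the classes. Read numbers of all tested genes were not set beside these, so it cannot rank the members against all genes either. Without knockout library 4 the knockout mitotic median was 1.82, and without wild-type library 3 the wild-type one was 0.696. The S phase genes ran the other way, with medians of 5.12 in wild-type and 1.51 in knockout mice and the larger index in wild-type for 12 of 14; here the wild-type median was near that of all tested genes and the knockout median below it. Without wild-type library 1 the wild-type S phase median was 3.23. Neither difference in spread was tested.

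**Figure D3:**
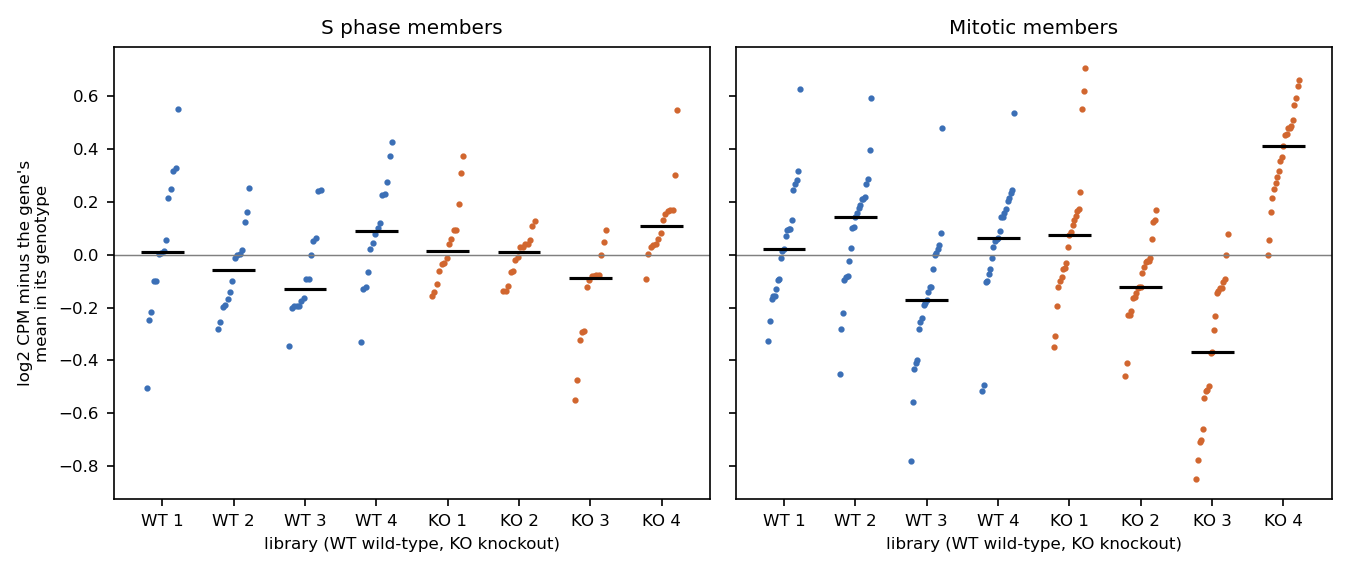
Deviation of each gene's log2 CPM from its mean in the same genotype, by library, for the S phase genes (left) and mitotic genes (right); each point is a gene and black lines are medians. Mitotic genes lie above 0 for 20 of 21 genes in knockout library 4 and for 1 of 21 in knockout library 3, and S phase genes for 13 of 14 and 2 of 14 of theirs, with smaller knockout medians (-0.09 to 0.11).

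The class median of the mitotic genes depended on which knockout libraries were used. It was 0.07 without knockout library 4, with 15 of 21 positive, and 0.50 without knockout libraries 2 and 3, with 20 of 21 positive. In that last fit 7 of the 21 mitotic genes had an unadjusted p under 0.05 (Mki67, Top2a, Cdk1, Ccna2, Aurkb, Birc5 and Tpx2). Of all genes tested there 8.52% did, and no mitotic gene passed after adjustment (0 of 21, edgeR). The choice was made after the data were seen, and libraries 2 and 3 had the lowest mitotic sums of the knockouts (107 and 87.4 CPM). Leaving them out raises the knockout mitotic level by construction, so no result is drawn from the 7 genes. Summed S phase levels were 217, 202, 193 and 215 CPM in wild-type libraries against 227, 224, 211 and 243 CPM in knockout libraries, so that knockout library 3 was within the wild-type range and the other 3 above it. The ratio of the mitotic to the S phase sum was 0.461, 0.511, 0.434 and 0.473 in wild-type and 0.518, 0.475, 0.414 and 0.603 in knockout libraries, again with both extremes in the knockout.

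Markers of the cells that could carry these transcripts were set beside them. The 8 macrophage markers together held 1629, 1773, 1472 and 1209 CPM in wild-type libraries against 1783, 1336, 1807 and 1694 CPM in knockout libraries. Knockout library 3, the lowest of the knockouts in mitotic genes, had the highest sum, of which Lyz2 alone made 951 CPM. By the mean log2 CPM of these markers it was not the highest, at 6.80. Wild-type libraries 1 and 2 had 6.86 and 6.93, and knockout libraries 1 and 4 had 6.83 and 6.85. The 5 endothelial markers were Pecam1, Cdh5, Kdr, Tek and Emcn. They summed to 1225 to 1485 CPM in wild-type libraries against 1042 to 1194 CPM in knockout libraries, lower in each knockout than in any wild-type library. So were 3 of the 5 singly (Pecam1, Tek and Emcn), though 0 were called. Over all tested genes 4.54% were lower without overlap and 4.32% higher. In the other marker lists 6 of 10 duct epithelium markers were higher without overlap and 1 of 6 adipocyte markers lower. The 6 precursor markers, among them Pdgfra and Dpp4, gave 625 to 776 and 545 to 667 CPM. Pdgfra, Pdgfrb, Pi16, Cd34 and Ly6a had log2FC from -0.25 to -0.13 and Dpp4 0.49, and 0 were called. T cell markers (6) ranged from 33.1 to 155 CPM in wild-type and 38.4 to 93.8 in knockout libraries, and B cell markers (5) from 47.8 to 219 and 55.3 to 114.

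Wild-type library 1 had the highest lymphocyte sums with a mitotic sum of 99.8 CPM, and knockout library 4 the lowest T cell sum of its group (38.4 CPM) with the highest mitotic levels. Duct markers, highest in knockout libraries 2 and 3, were at 40.6 CPM in knockout library 4. Mesothelial markers (4) ran from 52.1 to 198 CPM in wild-type libraries and from 94.5 to 264 CPM in knockout libraries. The 6 germ cell markers were near the floor, at 0.392 to 5.69 CPM in sum, with Ccna1 at 0 in each wild-type library and at most 0.222 CPM in the knockout. The erythroid markers summed to 306 to 431 CPM over the 8 libraries. The part of these cell types in the member levels was not tested.

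**Figure D4:**
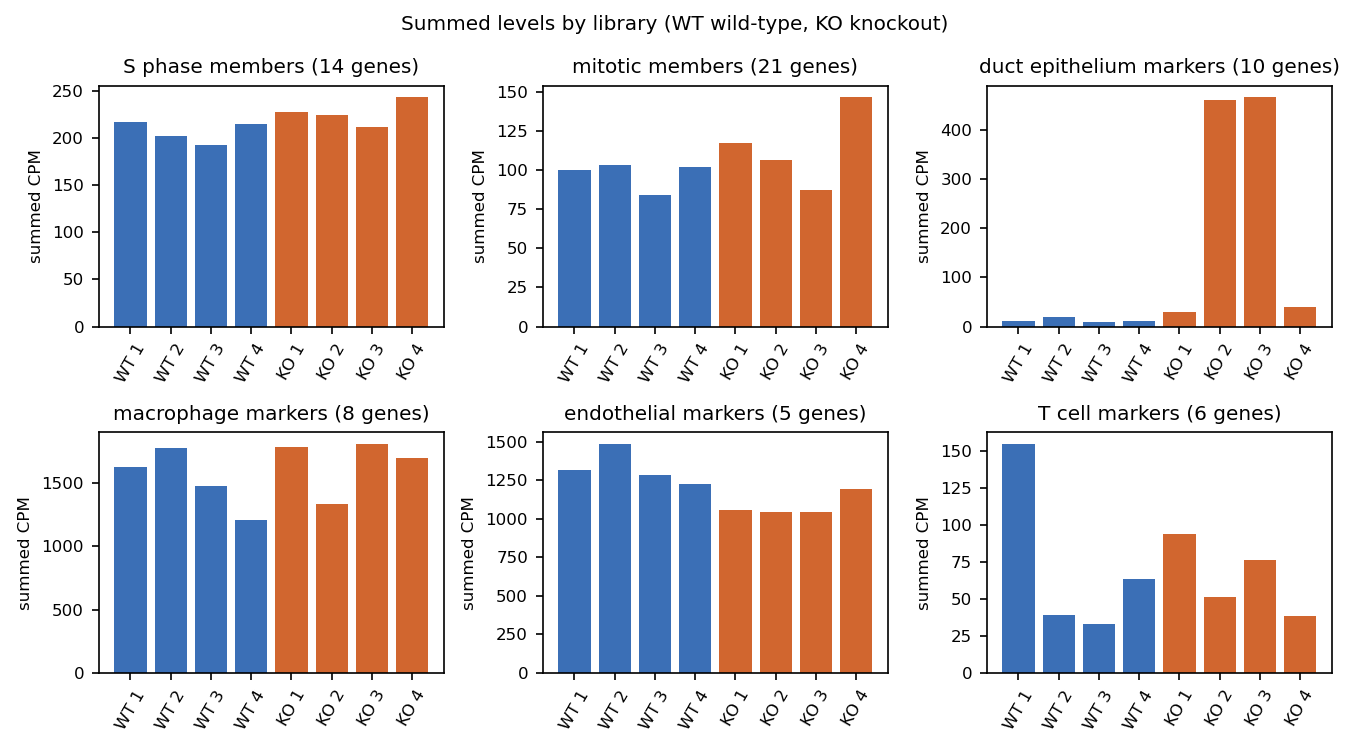
Summed CPM by library of the S phase and mitotic genes and of markers of 4 cell types, wild-type in blue and knockout in orange; each panel has its own axis from 0. The mitotic sum peaks in knockout library 4 (146 CPM), the duct epithelium sum in knockout libraries 2 and 3 (460.3 and 466 CPM), and the endothelial sum is lower in each knockout than in any wild-type library.

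A wider set of 111 cell division genes gave the same count of calls. Of 109 tested, 0 passed with edgeR (0.405% of all tested genes did), 10 reached an unadjusted p under 0.05, 5 in each direction, and DESeq2 called 1, Cdc25b. The 5 were 4.59% of the genes tested in these lists, below the 8.52% higher and 7.66% lower of all tested genes, and DESeq2 called 5.47% of all tested genes. Without overlap 3 of the 109 were higher (2.75%) and 4 lower, where 4.32% of all tested genes were higher and 4.54% lower. The genes named below were picked for the lowest p in each list, apart from the inhibitors, all of which are named. Of the 31 other S phase genes 20 lay above 0, and their median log2FC was 0.11. Chaf1a, a histone chaperone of the replication fork, averaged 6.28 ± 0.808 CPM in wild-type fat against 9.48 ± 1.88 CPM in the knockout (SD, n = 4; log2FC 0.60, edgeR adjusted p = 0.169), without overlap. Gins2, of the replicative helicase, had a log2FC of 0.61 (adjusted p = 0.269), Rfc3, of the clamp loader, 0.28 (0.303) and Orc6, of the origin recognition complex, -0.27 (0.279).

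Of the 49 other mitotic genes 36 lay above 0, and their median log2FC was 0.08, beside 0.23 for the 21 members. Cdc25b, the phosphatase that activates CDK1, averaged 24.4 ± 2.95 CPM in wild-type fat against 18.7 ± 0.582 CPM in the knockout (SD, n = 4; log2FC -0.39, edgeR adjusted p = 0.137), lower in each knockout library and opposite in sign to Cdk1. H2afx, a histone variant, had a log2FC of 0.30 (adjusted p = 0.239), Spc25, of the kinetochore, 0.77 (0.333) and Stmn1, a microtubule regulator, 0.66 (0.336).

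G1 regulators were spread around 0, with 13 of 23 positive and a median of 0.06. Cdk2, the kinase of the G1 to S transition, averaged 44.3 ± 3.35 CPM in wild-type fat against 36.7 ± 2.42 CPM in the knockout (SD, n = 4; log2FC -0.27, edgeR adjusted p = 0.171), and its partner Ccne2, cyclin E2, a log2FC of -0.42 (adjusted p = 0.287); both were lower in each knockout library. Ccnd1, cyclin D1, held 58.1, 63.7, 45.7 and 51.6 CPM in wild-type libraries against 52.7, 105, 110 and 63.1 CPM in knockout libraries (log2FC 0.59, edgeR adjusted p = 0.261). Its high values were in knockout libraries 2 and 3, the libraries with 460.3 and 466 CPM of duct markers, and their part in it was not tested. E2f8, a repressing E2F, had a log2FC of 0.55 (adjusted p = 0.383).

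Of 6 tested inhibitors of cyclin-dependent kinases, 4 had negative log2FC. Cdkn2b (p15) held 8.75, 9.15, 9.58 and 9.47 CPM in wild-type libraries against 5.14, 6.51, 6.66 and 7.58 CPM in knockout libraries (log2FC -0.51, SE 0.15, edgeR adjusted p = 0.164), lower in each knockout library. Cdkn2a, the neighbouring gene whose p16 product is a marker of senescence, had a log2FC of 0.66 (SE 0.31, adjusted p = 0.335) averaging 1.12 ± 0.315 CPM in wild-type fat against 1.77 ± 0.530 CPM in the knockout (SD, n = 4). Cdkn1a (p21), Cdkn1b (p27) and Cdkn2c (p18) had log2FC of -0.29, -0.23 and -0.20, and Cdkn1c (p57) 0.08, with edgeR adjusted p from 0.575 to 0.857.

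**Figure D5:**
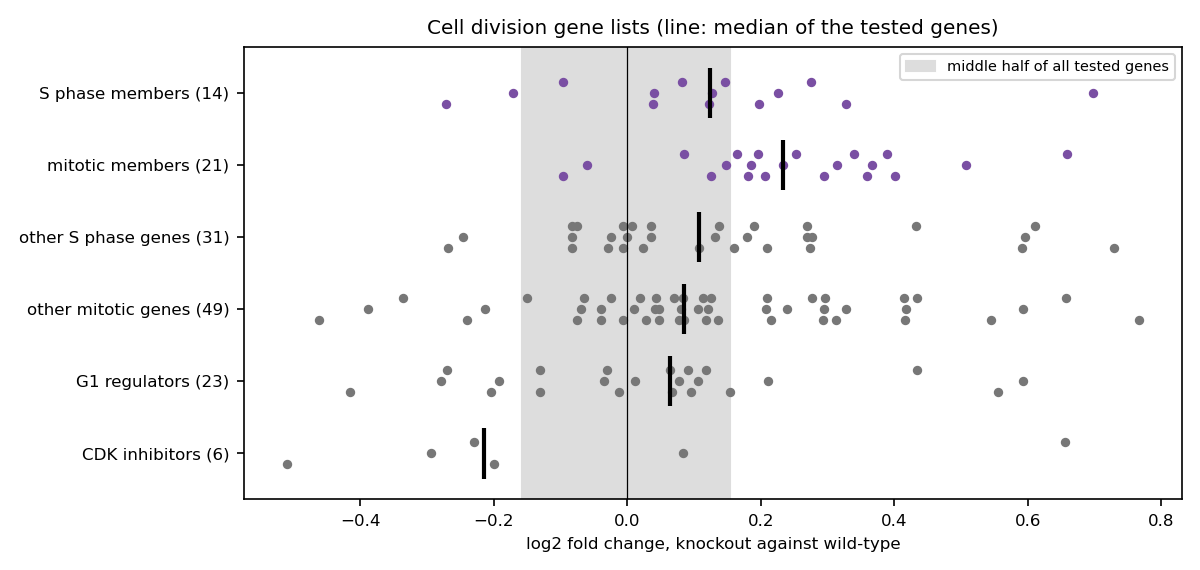
Log2 fold changes of all tested genes in 6 lists of cell division genes; each point is a gene, black lines are list medians and the grey band spans the quartiles of all tested genes (-0.16 to 0.15). Medians run from 0.23 (mitotic members) and 0.12 (S phase members) to 0.06 (G1 regulators) and -0.22 (inhibitors), and no gene shown passed an adjusted p of 0.05.

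Gene models in the deposited table overlap 10 of the 35 members, 4 on the same strand and 9 on the opposite strand. Those on the opposite strand include Exosc9 at Ccna2, Tnnc2 at Ube2c, Cdc23 at Kif20a and an unnamed gene at Tyms, and as the use of strand in counting was not stated, these counts are uncertain. The same holds for Chaf1a, Gins2, Cdc25b, Ccnd1, Ccne2 and E2f8 among the other genes. Pcna and Ccnb2 have pseudogenes in the table whose reads may be shared with them.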

How the data were processed

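RNA was measured in 8 libraries of polyadenylated RNA, 4 per genotype, with groups and replicate numbers from the sample titles. Per the labels' protocols, stranded TruSeq libraries were read as 50-cycle single reads. Novoalign 2.8.1, Picard and build mm10 stand in the submitters' processing notes, with the counter, annotation and use of strand not given in the sources used here. Deposited was 1 table that gives, per the file headers, a count and an FPKM value for each gene and library. The counts are whole numbers with unequal totals and were used as raw counts. The deposited FPKM values served only as a check: 158499 of 158499 values above 0 equalled count over length and library total within 0.1%. Start coordinates were counted from 0 in the file and are printed from 1.

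Members were those of a given list of 35 names, and the members, the wider lists and the markers were chosen with earlier results of these data known. The named genes were all members, Atg3, the 4 genes of lowest p in each wider list and all inhibitors. Genes were filtered with filterByExpr (minimum count 10), scaled by TMM and tested in R 4.3.3 with edgeR 4.0.16 (glmQLFit, glmQLFTest, no covariate). P-values were adjusted over 14800 genes by the Benjamini-Hochberg method. They weigh the genotype difference against the spread between these mice, with each gene's spread drawn toward that of all tested genes. The SE and 95% interval of a log2FC were derived from that test, and the intervals are not adjusted for multiple tests. Deviations used log2 CPM with a prior count of 2. The script was tested on simulated data. Libraries of one genotype all differed by more than sampling noise (lowest chi-square per gene 18.2).

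Alternatives were RLE and library size scaling, no filter or 1 CPM in 4 libraries, DESeq2 1.42.0, limma-voom (limma 3.58.1), a replicate block, and leaving out 1 library at a time. Leaving out knockout libraries 2 and 3 together was added after the data were seen. Promoters came from RefSeq (GRCm38.p6): 29 of 35 members matched, with 31 windows, of which 26 start within 200 bases of the gene model's 5′ end. As a check of start and strand, the bases just after the start were searched in the gene's GENCODE transcripts. They were found for 19 of the 29 members. The first rule for printing them took the lowest p and the most kinds of motif in each class, and gave E2f1, Mcm6 and Cdk1. After the values were seen the rule was changed to members without overlap whose start lay within 200 bases. That left out E2f1 and added Tyms and Cdc20.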

Additional observations from a re-analysis of the deposited data

Results flagged for a closer look

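In 5 of 74 groups of 4 libraries looked at (each member and each class sum in each genotype), 1 library lay far from the other 3, by Dixon's test at 95%; chance flags about 1 in 20. In the knockout, library 4 was the high one for Mcm3 (21.7 CPM, the others 18.3 to 18.8), Ccnb2 (4.27 CPM, the others 2.59 to 2.76) and Kif11 (6.38 CPM, the others 3.92 to 4.30). Knockout library 1 was the low one for Rrm1 (25.2 CPM, the others 28.5 to 28.8). In wild-type mice library 3 was the low one for Top2a (9.25 CPM, the others 13.7 to 14.02).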

How the results depend on the processing

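Over the 16 alternatives, no member passed an adjusted p of 0.05 except E2f1 with DESeq2 (log2FC 0.71, adjusted p = 0.0402), which made S phase members called 1 there and 0 elsewhere; for E2f1 the adjusted p ran from 0.0402 to 0.351. DESeq2 also called 810 genes in all, against 60, and 1 gene of the wider lists, against 0. Class medians kept their sign in all 16. Leaving out 1 library at a time gave medians from 0.08 to 0.22 for S phase and from 0.07 to 0.35 for mitotic genes. Without knockout libraries 2 and 3, chosen after seeing the data, the mitotic median was 0.50, 3 genes were called in all and the Atg3 log2FC was -0.77 (adjusted p = 0.0989). Leaving out 1 library gave 0 to 290 genes called in all (0 without knockout library 2, edgeR, with 1573 at an unadjusted p under 0.05; 290 without knockout library 1) and Atg3 log2FC from -0.78 to -0.69. The Atg3 call was lost without wild-type library 1 or 4 or knockout library 2. Other calls of the cell division genes did not change. The causes were not tested.

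With the replicate number as a block 14 genes were called and Atg3 had a log2FC of -0.73 (adjusted p = 0.111). Same-numbered libraries had correlations of 0.18, -0.11, -0.25 and 0.06 in their deviations, so the numbers were not taken to pair the mice. Depth limits the scarcest members most, Ccnb1 with as few as 8 reads, Cenpf with 12 and Bub1 with 13.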
